A study of Homo sapiens with 21 samples.

Results

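The 10 genes described here encode a part of the peptide cargo of dense core vesicles: the neuropeptide precursors VIP, NPY, GAL, ADCYAP1, SST and TAC1, and the granins CHGA, CHGB, SCG2 and SCG3. They are 10 of 18132 genes on the arrays, chosen by name. Where several probe sets carried a gene's symbol alone, the brightest on average over the 21 arrays stood for it. RNA of SH-SY5Y cells, a human neuroblastoma line of sympathetic origin, was hybridised to Affymetrix PrimeView arrays. The cells were either APP-V717F mutated (APP cells here, 1 line), a substitution in the amyloid precursor that runs in families with early Alzheimer's disease, or wild type (WT). Every culture was first differentiated over days in BDNF, a neurotrophin, at 50 ng/mL together with retinoic acid at 10 µM. A compound in 0.1% DMSO, or DMSO alone, was then given for 72 h. The 7 groups of 3 arrays were APP_AG494, APP_NOSCA, APP_DMSO, WT_AG494, WT_NOSCA, WT_PALBO and WT_DMSO. AG494 blocks the kinase of the EGF receptor. NOSCA and PALBO keep the spelling of the labels, in which no doses are stated. APP cells with PALBO were not analysed here. With 1 mutated line, the mutation and other features of that line cannot be told apart. The series describes 3 independent experiments, and the arrays are numbered below by the run of title numbers they belong to.

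Neuropeptides are cut from larger precursors inside dense core vesicles and are released by calcium-triggered fusion. Granins are acidic proteins that condense in the trans-Golgi network, help these vesicles to form and are themselves cut into peptides. Sympathetic neurons and neuroblastoma cells store such peptides together with noradrenaline, with NPY and chromogranin A as their usual marks.

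Array medians over genes lay between 8.39 and 8.51 on the log2 scale, and precision is limited by having 3 arrays in a group. Values are RMA log2 intensities, differences are log2 fold changes, SE is their standard error in the fit, and a gene is called changed at a limma adjusted p under 0.05. Levels of different genes are not set against each other, since each probe set has its own response. Of the noradrenergic markers DBH, the enzyme that makes noradrenaline, was at 12.98 in APP_DMSO and 13.29 in WT_DMSO. TH, the first enzyme of that pathway, was at 8.09 in APP_DMSO and 8.94 in WT_DMSO. SLC18A2, a vesicular monoamine transporter, was at 9.61 in APP_DMSO and 8.20 in WT_DMSO. DBH was called lower in APP_DMSO (adjusted p = 0.0046), and TH and SLC18A2 were not called. Over the 9 measured immune cell markers the mean level was 5.88 to 5.95 in APP_DMSO and 5.86 to 5.94 in WT_DMSO. In RNA of whole cultures, fewer cells of a type and less RNA per cell cannot be told apart. APP transcript itself was at 12.29 ± 0.06 in APP_DMSO and 12.57 ± 0.07 in WT_DMSO (SD, n = 3 each), a difference of -0.28 (SE 0.08, adjusted p = 0.041). Under AG494 it was at 12.38 in APP cells and 12.53 in WT cells, and under NOSCA at 12.45 and 12.50. The arrays overlapped in both of these pairs of groups. The arrays do not read the mutation.

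The members differed in how far they moved. The 7 group means of VIP spanned 3.54 log2 units, those of NPY 1.44 and those of CHGB 1.01, against a spread within groups (pooled SD) of 0.35, 0.27 and 0.15. CHGA spanned 0.81 with a pooled SD of 0.06, SCG2 0.72 with 0.11 and SCG3 0.45 with 0.12. For the other 4 genes the span was small: 0.26 for GAL, 0.35 for ADCYAP1, 0.39 for SST and 0.16 for TAC1. The small span of GAL holds for its brightest probe set. Group means of a dimmer one ran from 10.64 in WT_DMSO to 11.70 in APP_AG494. SST and TAC1 lay in the dimmest 33.3% of all genes, with means over all arrays of 6.26 and 4.88.

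**Figure D1:**
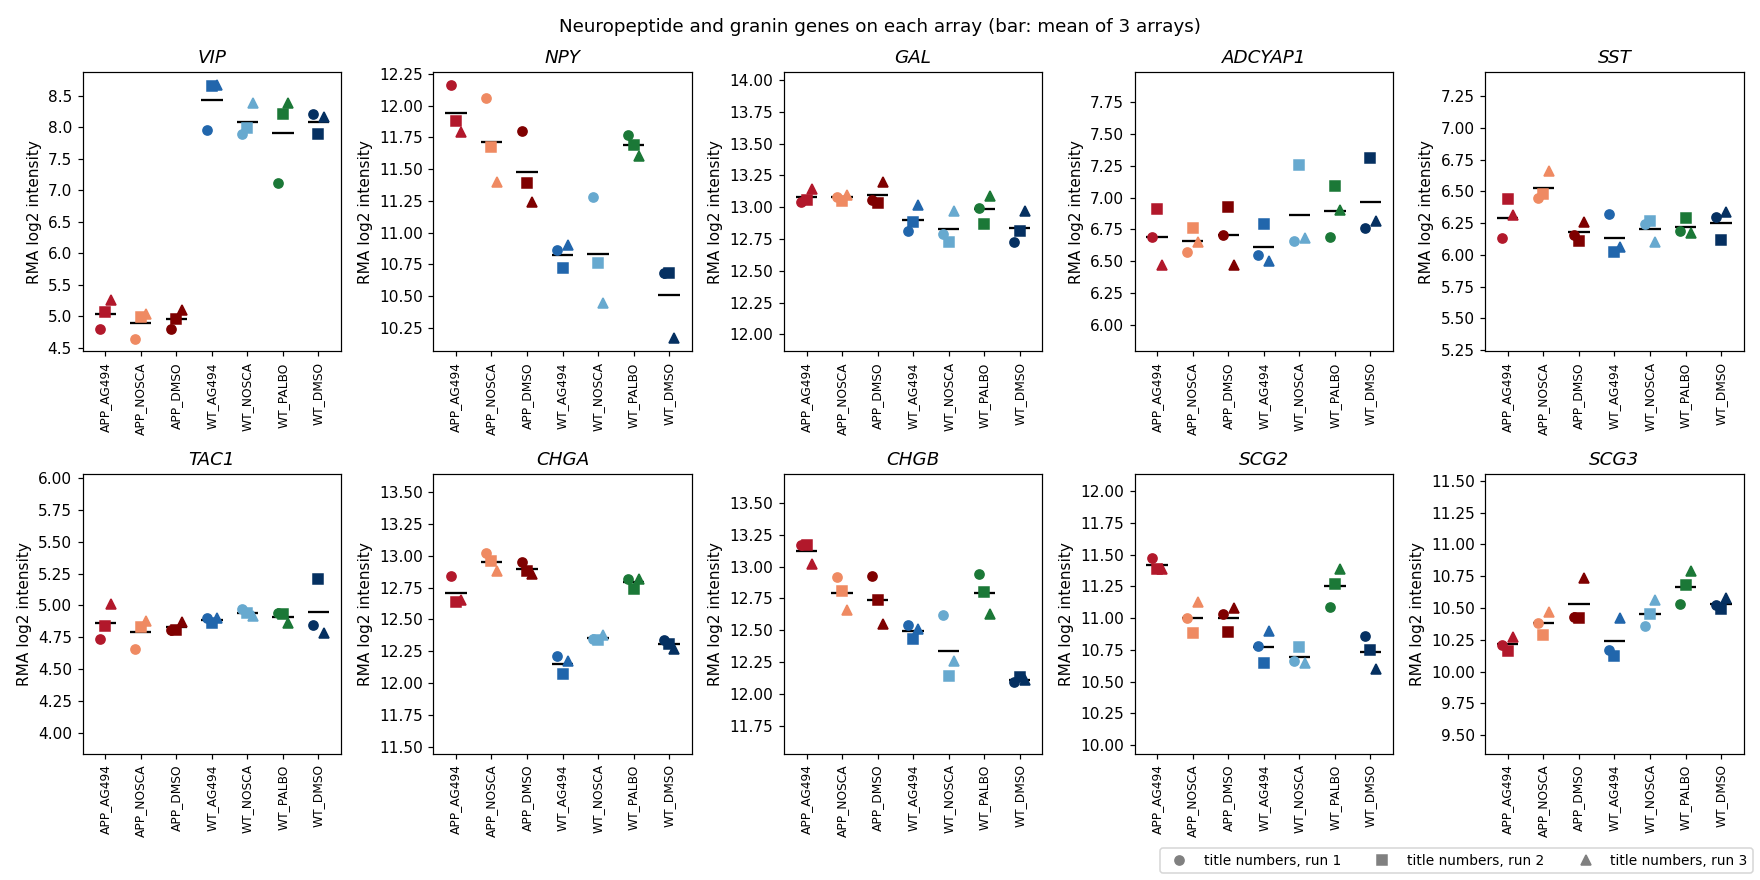
RMA log2 intensity (vertical axes, each with its own range) of the 10 genes on each of the 21 arrays, by group, with the marker shape giving the run of title numbers and the bar the mean of 3 arrays. VIP lies between 4.64 and 5.25 on the 9 APP arrays and between 7.12 and 8.68 on the 12 WT arrays, while WT_PALBO sits with the APP groups for CHGA, NPY and CHGB.

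Promoters of 6 members were searched, in 7 RefSeq entries of build GRCh38.p14 that reach from 250 bases before to 50 bases after a gene start. Peptide genes are classic targets of cAMP signalling through CREB, which binds the cAMP response element TGACGTCA. Its letters were searched on both strands, together with the short form TGACGT, which lies within it. The full element was found in SST, 47 bases before the start. It occurs in 1.85% of the 35116 promoters of this length. VIP held the short form alone, 79 bases before the start. The short form, with or without the rest of the element, occurs in 7.98% of promoters. The TATA letters TATAAA, present in 11.53% of promoters, were found in VIP, nearest at 30 bases before the start, and in SST at 215 bases before. The entries of NPY, TAC1, SCG3 and ADCYAP1 hold neither form of the element, which says only that these letters are not in these windows. The promoters of SST (chr3:187670345-187670644, minus strand), VIP (chr6:152750547-152750846, plus strand) and NPY (chr7:24283940-24284239, plus strand) are printed 5′ to 3′ because VIP and NPY carry results below and SST holds the whole element. Capitals mark the element or its short form.
SST: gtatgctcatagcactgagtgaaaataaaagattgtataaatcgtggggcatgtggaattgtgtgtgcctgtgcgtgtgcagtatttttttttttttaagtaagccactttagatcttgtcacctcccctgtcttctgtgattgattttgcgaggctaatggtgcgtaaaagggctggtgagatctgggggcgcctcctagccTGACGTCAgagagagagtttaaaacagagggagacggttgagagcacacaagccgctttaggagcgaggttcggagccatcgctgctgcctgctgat
VIP: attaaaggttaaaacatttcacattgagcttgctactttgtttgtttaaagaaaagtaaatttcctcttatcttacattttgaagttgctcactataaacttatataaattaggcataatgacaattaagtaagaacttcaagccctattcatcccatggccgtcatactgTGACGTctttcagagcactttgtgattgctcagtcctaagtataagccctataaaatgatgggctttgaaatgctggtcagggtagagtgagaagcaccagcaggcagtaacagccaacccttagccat
NPY: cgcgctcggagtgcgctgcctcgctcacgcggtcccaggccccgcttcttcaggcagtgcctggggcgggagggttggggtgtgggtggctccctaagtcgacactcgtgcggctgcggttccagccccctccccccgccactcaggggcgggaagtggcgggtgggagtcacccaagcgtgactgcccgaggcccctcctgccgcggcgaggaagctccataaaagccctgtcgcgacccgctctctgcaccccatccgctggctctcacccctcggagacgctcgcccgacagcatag

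The comparison of APP_DMSO with WT_DMSO asks how the mutated line differed under vehicle. VIP was far lower in APP cells, and NPY, CHGA and CHGB were higher. Thus 4 of the 10 members were called, 3 higher and 1 lower, where 9.25% of all genes were called, 5.20% higher and 4.05% lower. With the run as a replicate block 6 members passed, against 17.4% of all genes. The median difference of the members was 0.13, beside 0.022 over all genes.

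VIP encodes vasoactive intestinal peptide, which acts through receptors that raise cAMP. Its values in runs 1 to 3 were 4.80, 4.96 and 5.10 in APP_DMSO, against 8.22, 7.89 and 8.16 in WT_DMSO. The groups stood far apart, and all APP arrays were at the dim end of the array's range, which began at 4.14 over all probe sets. The difference was -3.14 (SE 0.26, adjusted p = 9e-08), a measured intensity in APP_DMSO of 0.114 times that in WT_DMSO, and within the runs it was -3.42, -2.93 and -3.06. A second probe set of VIP read 4.83 in APP_DMSO and 8.02 in WT_DMSO, a difference of -3.19 (SE 0.24). The files carry no detection call, so the fold describes measured intensities.

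NPY encodes neuropeptide Y, a co-transmitter of sympathetic neurons. It was at 11.80, 11.39 and 11.24 in APP_DMSO, against 10.68, 10.68 and 10.17 in WT_DMSO. Every APP_DMSO array was above every WT_DMSO array. The difference was 0.97 (SE 0.20, adjusted p = 0.0034), or 1.96-fold.

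CHGA encodes chromogranin A, the granin used as a serum mark of neuroendocrine tumours. Its values were 12.95, 12.88 and 12.86 in APP_DMSO, against 12.34, 12.31 and 12.27 in WT_DMSO. The groups did not overlap and the arrays within each were tight. The difference was 0.59 (SE 0.07, adjusted p = 5.9e-06) and nearly the same in each run, at 0.61, 0.56 and 0.59.

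CHGB encodes chromogranin B, its close relative. It was at 12.93, 12.74 and 12.55 in APP_DMSO, against 12.09, 12.13 and 12.11 in WT_DMSO. All APP_DMSO arrays were higher, with more spread among them than among the WT_DMSO arrays. The difference was 0.63 (SE 0.12, adjusted p = 0.0011), and all 4 probe sets of CHGB were called higher, by 0.51 to 0.64.

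GAL and SCG2 did not pass the threshold. GAL, the precursor of galanin, was at 13.06, 13.03 and 13.20 in APP_DMSO, against 12.73, 12.81 and 12.97 in WT_DMSO, without overlap. The difference of 0.26 had an adjusted p of 0.068, and of 0.0029 with the replicate block. A dimmer second probe set of GAL read 11.50 in APP_DMSO and 10.64 in WT_DMSO, a larger difference of 0.86 (SE 0.28, adjusted p = 0.064 over probe sets). SCG2, the precursor of secretoneurin, was at 11.03, 10.89 and 11.08 in APP_DMSO, against 10.86, 10.75 and 10.60 in WT_DMSO. Its groups did not overlap, and the difference of 0.27 had an adjusted p of 0.085, and of 0.046 with the block. SCG3, secretogranin III, which binds chromogranin A to the vesicle membrane, was at 10.53 in both groups, with an interval (95%) of the difference from -0.20 to 0.21. The interval was -0.63 to 0.10 for ADCYAP1 (PACAP, a peptide related to VIP), -0.28 to 0.12 for SST (somatostatin, an inhibitory peptide) and -0.31 to 0.08 for TAC1 (the substance P precursor).

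The same genotype difference was read under AG494 and NOSCA on other arrays. Between APP_AG494 and WT_AG494, 5 members were called: VIP lower, and NPY, CHGA, CHGB and SCG2 higher. Of all genes 9.02% were called there, 4.10% higher and 4.92% lower. With the block 6 members passed, against 16.9% of all genes, and the members' median was 0.17, beside 0.024 over all genes. Between APP_NOSCA and WT_NOSCA also 5 were called: VIP lower, and NPY, CHGA, CHGB and SST higher. Of all genes 7.20% were called there, 3.56% higher and 3.65% lower. With the block 7 members passed, against 14.8% of all genes, and the members' median was 0.28, beside 0.018 over all genes. VIP differed by -3.40 (SE 0.26) under AG494 and by -3.20 (SE 0.26) under NOSCA. CHGA differed by 0.56 under AG494 and by 0.60 under NOSCA (SE 0.07 each). These are close to its value under DMSO.

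NPY was at 12.16, 11.88 and 11.79 in APP_AG494, against 10.86, 10.72 and 10.90 in WT_AG494, a difference of 1.12 (adjusted p = 0.00094). Under NOSCA it was at 12.06, 11.67 and 11.40 in APP cells, against 11.28, 10.76 and 10.45 in WT cells, a difference of 0.88 (adjusted p = 0.0088). Each of these pairs of groups stood apart, although the highest WT_NOSCA array was above the lowest APP_DMSO array. The NOSCA call of NPY was lost without APP_NOSCA replicate 1 (0.70, adjusted p = 0.06) or WT_NOSCA replicate 3 (0.69, adjusted p = 0.059).

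CHGB differed by 0.63 (adjusted p = 0.0012) under AG494. Under NOSCA it differed by 0.46 (adjusted p = 0.018), and that call was lost on leaving out APP_NOSCA replicate 1 or 2 or WT_NOSCA replicate 2 or 3, which gave 0.40, 0.45, 0.36 and 0.42. SCG2 was at 11.47, 11.39 and 11.39 in APP_AG494, against 10.78, 10.65 and 10.90 in WT_AG494. The arrays did not overlap, and SCG2 rose by 0.64 (SE 0.09, adjusted p = 0.00012). Under NOSCA the difference of SCG2 was 0.31 (adjusted p = 0.051, and 0.026 with the block). GAL was higher by 0.18 under AG494 and by 0.25 under NOSCA. It passed with the block alone, at adjusted p = 0.031 under AG494 and 0.0043 under NOSCA.

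SST under NOSCA was the one call in a dim gene. It was at 6.45, 6.48 and 6.66 in APP_NOSCA, against 6.24, 6.27 and 6.10 in WT_NOSCA. The groups did not overlap, but the difference of 0.33 (adjusted p = 0.044) missed the threshold on leaving out any single array of either group, with values of 0.26 to 0.37 and adjusted p up to 0.2.

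Averaged over DMSO, AG494 and NOSCA, 6 members were called where 22.0% of genes were, 12.1% higher and 9.91% lower. With the block it was also 6 members, against 32.1% of all genes. VIP was lower by -3.24 (SE 0.15), and 5 genes were higher: NPY by 0.99 (SE 0.12), CHGA by 0.58 (SE 0.04), CHGB by 0.57 (SE 0.07), SCG2 by 0.41 (SE 0.05) and GAL by 0.23 (SE 0.05). For these 6 genes the sign was the same in all 3 runs. GAL averaged 13.08 in APP cells and 12.86 in WT cells, and its dimmer probe set differed by 0.76 (SE 0.16, adjusted p = 0.0017 over probe sets). The 2 probe sets of GAL thus agreed in direction and not in size. ADCYAP1, SST, TAC1 and SCG3 were not called, with intervals of -0.34 to 0.08, 0.02 to 0.25, -0.21 to 0.02 and -0.15 to 0.08.

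Under PALBO in WT cells NPY and 3 of the 4 granins were higher. Between WT_PALBO and WT_DMSO 4 members were called, all higher, where 6.98% of genes were called and 3.11% were called higher. With the block there were 4 calls, against 15.1% of all genes. The members' median was 0.14, beside 0.004 over all genes. This comparison and that of APP_DMSO share the WT_DMSO arrays.

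NPY was at 11.77, 11.69 and 11.60 in WT_PALBO, against the 10.68, 10.68 and 10.17 of WT_DMSO. Its arrays were above all other WT arrays and within the range of the APP arrays. The rise was 1.18 (SE 0.20, adjusted p = 0.00095), or 2.26-fold, with 1.09, 1.02 and 1.43 within the runs. CHGA was at 12.82, 12.74 and 12.82 in WT_PALBO, a rise of 0.49 (SE 0.07, adjusted p = 0.00018) over WT_DMSO. The arrays of CHGA lay above every other WT array and below every APP_DMSO array.

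CHGB was at 12.94, 12.80 and 12.63 in WT_PALBO. It rose by 0.68 (SE 0.12, adjusted p = 0.00094), and its 4 probe sets rose by 0.63 to 0.81. SCG2 was at 11.09, 11.27 and 11.39 in WT_PALBO, a rise of 0.52 (SE 0.09, adjusted p = 0.0015) over WT_DMSO. In all 3 runs WT_PALBO was above WT_DMSO for these genes, for SCG2 by 0.24, 0.53 and 0.80. No call among the 4 was lost on leaving out any array of the pair of groups.

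VIP did not follow. It was at 7.12, 8.21 and 8.39 in WT_PALBO, so that run 1 was low and the other runs lay within or above the WT_DMSO values. The difference was -0.18 (interval -0.72 to 0.35), and 0.21 without WT_PALBO replicate 1. GAL differed by 0.15 (interval -0.03 to 0.32) and SCG3 by 0.14 (interval -0.07 to 0.34). The other 3 members differed by -0.07 to -0.04.

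**Figure D2:**
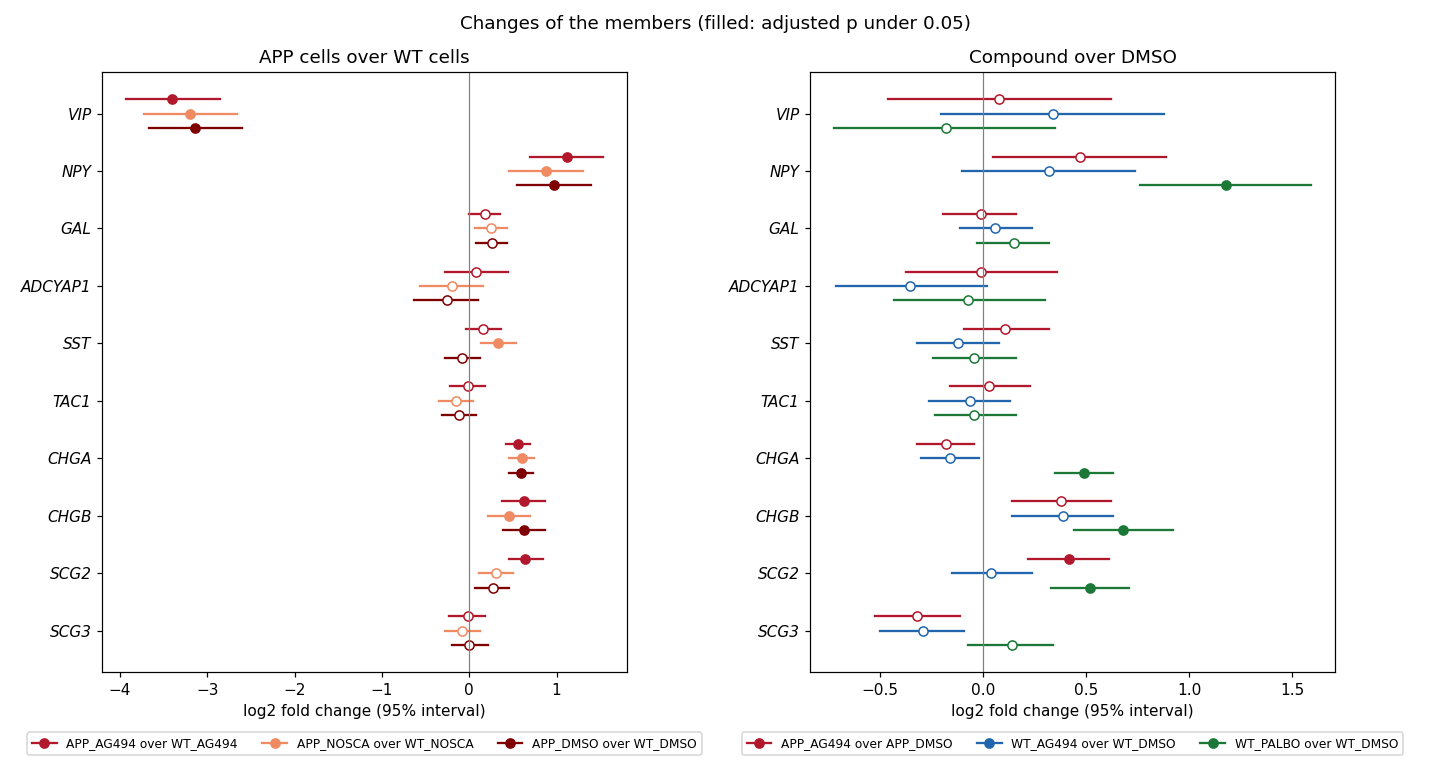
Log2 fold change (horizontal axes, with 95% intervals) of the 10 genes between APP and WT cells under the same compound (left) and between compound and DMSO (right), with filled points at an adjusted p under 0.05. VIP is near -3 in all 3 genotype comparisons and near 0 in the compound comparisons, whereas NPY, CHGA and CHGB are called in the genotype comparisons and under PALBO.

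Without the block, AG494 gave fewer calls among the members than PALBO. Between APP_AG494 and APP_DMSO 1 member was called, SCG2, which was higher. Of all genes 4.75% were called, and 1.99% were called higher. With the run as a block 5 members were called, against 11.8% of all genes. That is more than the 4 calls of WT_PALBO over WT_DMSO with the block. SCG2 was at 11.47, 11.39 and 11.39 in APP_AG494, against 11.03, 10.89 and 11.08 in APP_DMSO. The arrays did not overlap, and SCG2 rose by 0.42 (SE 0.09, adjusted p = 0.011). The call was lost without APP_DMSO replicate 2 (0.36, adjusted p = 0.061).

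CHGB was at 13.17, 13.17 and 13.02 in APP_AG494, against 12.93, 12.74 and 12.55 in APP_DMSO. The difference of 0.38 had an adjusted p of 0.071, and of 0.0079 with the block. Of its 4 probe sets, 1 was called, at 0.49 (adjusted p = 0.041 over probe sets). SCG3 was at 10.21, 10.16 and 10.27 in APP_AG494, against 10.43, 10.42 and 10.74 in APP_DMSO, a difference of -0.32 (adjusted p = 0.074, and 0.0029 with the block). The 2 granins thus differed in opposite directions, each without overlap. CHGA differed by -0.18 (adjusted p = 0.15, and 0.033 with the block) and NPY by 0.47 (adjusted p = 0.24, and 0.02 with the block). VIP differed by 0.08 (interval -0.46 to 0.62).

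In WT cells AG494 gave no call by limma, where 0.254% of genes were called. There were 3 members at an unadjusted p under 0.05, and 2 calls with the block, where 1.97% of genes were called. CHGB was at 12.54, 12.43 and 12.51 in WT_AG494, a difference of 0.39 from WT_DMSO (adjusted p = 0.22, and 0.027 with the block). SCG3 was at 10.17, 10.12 and 10.42 in WT_AG494, against 10.52, 10.49 and 10.58 in WT_DMSO, a difference of -0.29 (adjusted p = 0.3, and 0.022 with the block). CHGB was above and SCG3 below WT_DMSO in each run, as they were above and below APP_DMSO in APP cells, although the 2 comparisons use different arrays throughout. The remaining member was CHGA, at -0.16 (adjusted p = 0.53).

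No member was called for the interaction of the genotype with AG494, where limma called 0.0386% of genes. The block also called none, against 1.26% of all genes. The member with an unadjusted p under 0.05 was SCG2, whose difference under AG494 was larger in APP cells by 0.37 (interval 0.10 to 0.65, adjusted p = 0.41). For VIP the interaction was -0.26 (interval -1.02 to 0.50), and for NPY 0.15 (interval -0.44 to 0.74).

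NOSCA gave no call among the members in either genotype. In APP cells limma called 0% of genes, with 1 member at an unadjusted p under 0.05 and no member called with the block, against 0.0276% of all genes. That member was SST, at 6.45, 6.48 and 6.66 in APP_NOSCA, against 6.16, 6.11 and 6.26 in APP_DMSO, a difference of 0.35 (adjusted p = 0.71). In WT cells 0.0165% of genes were called, with no member at an unadjusted p under 0.05 and none with the block, against 0.419% of all genes. NPY differed there by 0.32 (interval -0.10 to 0.74) and CHGB by 0.23 (interval -0.01 to 0.47). The interaction with NOSCA gave no call by limma, among the members or among all genes (0%), and with the block none among the members, against 0.0165% of all genes. At an unadjusted p under 0.05 there was 1 member, SST at 0.40 (adjusted p = 0.99).

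Among the compounds in WT cells, PALBO gave the most calls among the members, at unstated doses. Between WT_PALBO and WT_AG494 4 members were called, all higher, where 3.25% of genes were called and 1.20% called higher. With the block 5 passed, against 8.70% of all genes. CHGA was higher by 0.64 (adjusted p = 2.1e-05), SCG2 by 0.48 (adjusted p = 0.0059), SCG3 by 0.43 (adjusted p = 0.017) and NPY by 0.86 (adjusted p = 0.02). CHGB differed by 0.30 (adjusted p = 0.22, and 0.04 with the block). The NPY call held only without WT_AG494 replicate 3 among the 6 arrays left out in turn (0.80 to 0.90, adjusted p up to 0.087). That of SCG3 was lost without replicate 1 or 2 of WT_AG494 (0.40 and 0.37) or replicate 2 or 3 of WT_PALBO (0.43 and 0.37).

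Between WT_PALBO and WT_NOSCA again 4 members were called higher, where 3.23% of genes were called and 1.13% called higher: NPY by 0.85, CHGA by 0.43, CHGB by 0.45 and SCG2 by 0.56. The block gave 4 as well, against 7.23% of all genes. The NPY call held only without WT_NOSCA replicate 1 (otherwise 0.66 to 0.90, adjusted p up to 0.13), and that of CHGB only without replicate 1 of WT_NOSCA or replicate 3 of WT_PALBO (otherwise 0.35 to 0.45, adjusted p up to 0.21). Between WT_AG494 and WT_NOSCA limma called no member, where 0.0110% of genes were called, with 2 members at an unadjusted p under 0.05 and none with the block, against 0.0331% of all genes. These were CHGA at -0.21 (interval -0.35 to -0.07) and SCG3 at -0.22 (interval -0.43 to -0.02). In APP cells SCG2 was higher in APP_AG494 than in APP_NOSCA by 0.41 (adjusted p = 0.028), the single call where 1.56% of genes were called and 0.822% called higher. It held only without APP_NOSCA replicate 3 (otherwise 0.35 to 0.43, adjusted p up to 0.15). With the block CHGA (-0.24, adjusted p = 0.011) and CHGB (0.32, adjusted p = 0.036) passed as well, where 5.61% of all genes did.

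Ordered by their means, the 4 WT groups of VIP all came above the 3 APP groups, and of the 6 neighbouring pairs only WT_PALBO and APP_AG494 were apart. The order for NPY ran from APP_AG494 at 11.94 over APP_NOSCA at 11.71, WT_PALBO at 11.68 and APP_DMSO at 11.48 to WT_NOSCA and WT_AG494 at 10.83 each and WT_DMSO at 10.51. Neighbours in it overlapped except WT_AG494 and WT_DMSO. CHGB had the same first 4 groups in the same order, from 13.12 in APP_AG494 to 12.74 in APP_DMSO, and the same last group, WT_DMSO at 12.11. For CHGA the highest group was APP_NOSCA at 12.96 and the lowest WT_AG494 at 12.15, with 4 of 6 neighbouring pairs apart. SCG3 had another order, with WT_PALBO highest at 10.67 and the AG494 groups lowest, at 10.21 in APP_AG494 and 10.24 in WT_AG494. No neighbouring pair was apart for SCG3, SCG2, GAL, ADCYAP1 or TAC1.

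NPY and CHGB were among each other's most similar genes. Over the 21 arrays their Pearson correlation was 0.935, the highest of all genes for CHGB and the second for NPY, after TPRG1L at 0.944. ORAI3 followed for NPY at 0.918, and BOK and GFUS were next for CHGB at 0.921 and 0.92. The arrays share groups and runs, so the correlation is a description. With group means taken out, 5 pairs of members had deviations that correlated at 0.60 or more in size (21 arrays each). NPY with CHGB was at 0.75, GAL with SCG3 at 0.69, SCG2 with SCG3 at 0.61, CHGB with SCG3 at -0.61 and VIP with CHGB at -0.60. With the run means taken out as well, these became 0.41 for NPY with CHGB, -0.19 for GAL with SCG3, 0.73 for SCG2 with SCG3, -0.40 for CHGB with SCG3 and -0.13 for VIP with CHGB. All but SCG2 with SCG3 were thus smaller in size without the run means, and GAL with SCG3 changed sign. For VIP the most similar genes were KIF26B at 0.974, ELFN1 at 0.973 and TVP23A at 0.972.

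**Figure D3:**
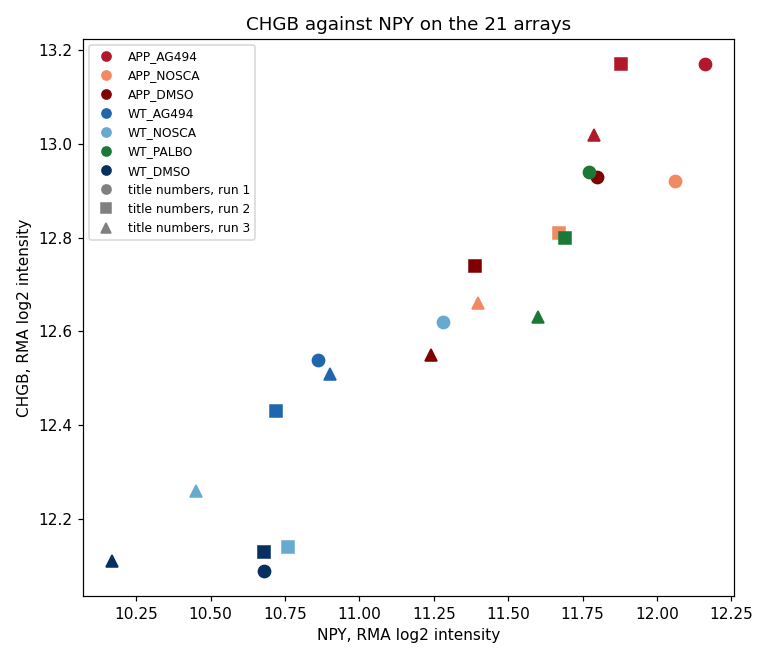
CHGB against NPY (both RMA log2 intensity) on the 21 arrays, coloured by group, with the marker shape giving the run. The points follow 1 line from WT_DMSO at the lower left to APP_AG494 at the upper right, with the WT_PALBO arrays among those of the APP groups.

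Other parts of the peptide pathway were read from gene lists. Their counts stand beside the shares called over all genes, which with limma and with the block were 9.25% and 17.4% in APP_DMSO, 6.98% and 15.1% under PALBO, and 4.75% and 11.8% in APP_AG494 against APP_DMSO. Of 34 measured genes of dense core vesicle formation and release, 5 were higher and 3 lower in APP_DMSO (9 and 3 with the block), with a list median of 0.09. SYTL4 (granuphilin, which docks granules) rose by 1.45 (SE 0.15), SYT7 (a calcium sensor of release) by 1.07 (SE 0.22), HID1 (needed for vesicle formation in worms and mice) by 0.83 (SE 0.14) and ICA1 (a membrane-bending protein of immature granules) by 0.41 (SE 0.08). The complexins CPLX1 and CPLX2, which bind the fusion machinery, fell by 1.25 (SE 0.15) and 1.32 (SE 0.27). These are the 6 called genes of lowest p. The widest gap of means in the list was that of RPH3A, outside these 6, at 6.08 in APP_DMSO and 8.05 in WT_DMSO. RPH3A was also below WT_DMSO in the other WT groups, at 7.13 in WT_AG494, 7.15 in WT_NOSCA and 6.98 in WT_PALBO.

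Under PALBO 8 of these 34 genes were higher and none lower (15 and 1 with the block), with a list median of 0.17. RAB27B, a GTPase of granule docking, rose by 1.13 (SE 0.20), and HID1, SYTL4 and ICA1 rose by 0.86, 0.87 and 0.85. The calcium sensors SYT4 and SYT9 rose by 0.65 and 0.63. CPLX1 and CPLX2 were not called there. In APP_AG494 SYT9 rose by 0.63 over APP_DMSO, and SNAP25, a fusion protein, fell by 0.22, the 2 calls of this list there (3 higher and 4 lower with the block).

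Of 14 other granin and peptide processing genes, VGF alone was called in APP_DMSO and fell by 0.26 (SE 0.08, adjusted p = 0.037). VGF is a granin-like precursor, and 3 genes of the list were lower with the block. Under PALBO SCG5, a chaperone of a prohormone convertase, rose by 0.49 (SE 0.10) and PTPRN, a granule membrane protein, by 0.41 (SE 0.11). In APP_AG494 the convertase FURIN rose by 0.60 (SE 0.12) over APP_DMSO, the single call there (2 higher and 1 lower with the block). The carboxypeptidase CPE stood at 10.06 in APP_DMSO and 10.02 in WT_DMSO.

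Of 18 measured receptors of the member peptides, 1 was higher and 2 lower in APP_DMSO. SSTR2, a somatostatin receptor, rose by 1.65 (SE 0.25, adjusted p = 0.00015). ADCYAP1R1, the PACAP receptor, fell by 0.77 (SE 0.15, adjusted p = 0.0019), and NPY2R, an NPY receptor, fell by 0.99 (SE 0.23, adjusted p = 0.009). SSTR2 was at 7.82 in APP_DMSO and 6.16 in WT_DMSO, and NPY2R at 5.94 and 6.93. The lower value of each was below 6.62, where the dimmest 33.3% of all genes ended. ADCYAP1R1 was at 8.75 in APP_DMSO and 9.52 in WT_DMSO, but at 10.21 in WT_PALBO, where it rose by 0.70 (SE 0.15, adjusted p = 0.0059). It was the single receptor called under PALBO, where the block gave 1 higher and 1 lower. The VIP receptors were not called: VIPR1 was at 7.10 in APP_DMSO and 7.16 in WT_DMSO, and VIPR2 at 7.54 and 7.53 in the same groups.

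**Figure D4:**
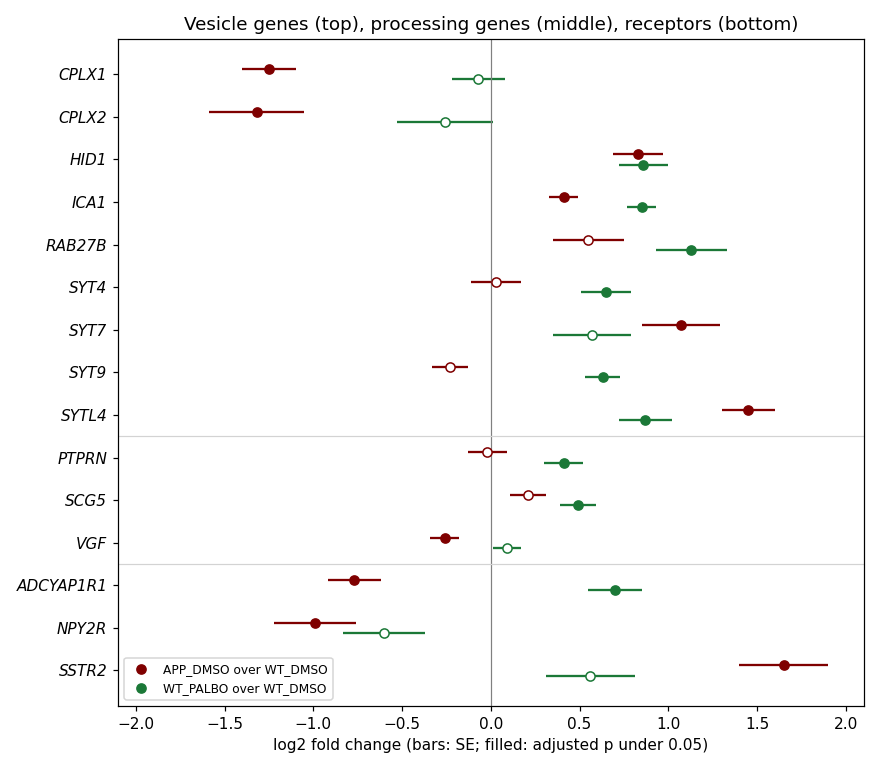
Log2 fold change (horizontal axis, bars SE) of called genes of vesicle formation and release, peptide processing and the peptide receptors in APP_DMSO and WT_PALBO over WT_DMSO, filled at an adjusted p under 0.05. HID1, ICA1 and SYTL4 are higher in both comparisons, which share WT_DMSO, whereas ADCYAP1R1 is lower in APP_DMSO and higher in WT_PALBO.

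Of 37 measured other neuropeptide genes, 3 were higher and 4 lower in APP_DMSO. NPPC (C-type natriuretic peptide) rose by 1.20 (SE 0.09), ADM2 by 0.80 (SE 0.13) and NPPB by 0.56 (SE 0.12). NTS (neurotensin) fell by 1.14 (SE 0.16), NMU (neuromedin U) by 0.84 (SE 0.10) and TAC3 (neurokinin B) by 0.51 (SE 0.11). These are the 6 called genes of lowest p. The widest gap of means in the list was that of CARTPT, outside these 6, at 6.21 in APP_DMSO and 8.25 in WT_DMSO. NTS, at 5.06 in APP_DMSO and 6.20 in WT_DMSO, and TAC3, at 5.65 and 6.16, lay in the dimmest 33.3% of all genes. Under PALBO limma called none higher and 3 lower, and the block 2 higher and 4 lower. ADM (adrenomedullin) fell by 1.10, NTS by 0.87 and NMU by 0.49. Under AG494 in APP cells NPPC fell by 1.25 (SE 0.09), PMCH by 0.56 and NMU by 0.47, and ADM rose by 1.19 (SE 0.23).

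Of 36 measured genes of cAMP signalling, CREB and neuroendocrine control, 1 was higher and 6 lower in APP_DMSO (1 and 9 with the block). INSM1, a transcription factor of neuroendocrine cells, rose by 1.71 (SE 0.26, adjusted p = 0.00015). REST, a repressor of neuronal genes, fell by 0.55 (SE 0.10), as did the adenylyl cyclase ADCY9 (SE 0.12). The early-response genes EGR1 and JUNB fell by 0.90 and 0.79, and PDE4B, which breaks down cAMP, by 0.29. INSM1 fell by 2.76 (SE 0.26) in APP_AG494, to 6.79 against 9.55 in APP_DMSO. PDE4B and PRKAR2B, a subunit of protein kinase A, fell by 0.43 and 0.34 in the same comparison, where the block gave 2 higher and 4 lower. Under PALBO ISL1 rose by 0.43 and EGR1 by 0.67 (2 higher and 3 lower with the block).

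Markers of other cell states moved in the same comparisons. Of 15 measured markers of mesenchymal neuroblastoma cells, 5 were lower and none higher in APP_DMSO, and 6 were lower and none higher under PALBO. With the block 7 were lower in APP_DMSO and 8 under PALBO, and again none higher. Their mean level per array was 8.96 to 9.08 in APP_DMSO and 8.85 to 8.99 in WT_PALBO, against 9.24 to 9.42 in WT_DMSO. In APP_DMSO COL1A1 fell by 1.19, SNAI2 by 1.15, SOX9 by 0.60, YAP1 by 0.48 and VIM by 0.36. SNAI2 was dim, at 6.23 in APP_DMSO and 7.37 in WT_DMSO. Under PALBO SOX9 fell by 1.41, YAP1 by 0.93, COL1A1 by 0.88, MAML2 by 0.66, FN1 by 0.43 and VIM by 0.41. COL1A1, SOX9, YAP1 and VIM were thus called lower in both comparisons, which share WT_DMSO. Of 17 noradrenergic markers limma called 3 lower in APP_DMSO (ELAVL4, DBH and SLC6A2) and 2 higher under PALBO (ISL1 and SLC6A2). With the block the list was split in APP_DMSO, with 3 higher and 4 lower, and 6 were higher under PALBO. Their mean level was 11.62 to 11.72 in APP_DMSO, 11.69 to 11.89 in WT_PALBO and 11.44 to 11.82 in WT_DMSO. The lists share genes, so the ISL1 call under PALBO is the same one as above. ISL1, PHOX2A, HAND2, GATA2 and GATA3 also stand in the list of cAMP signalling and neuroendocrine control. SLC18A1 and SLC18A2 also stand in the vesicle list. Among 8 Schwann cell or glial markers S100B fell by 1.01 in APP_DMSO, to 6.18, which is also below 6.62. It rose by 0.95 under PALBO. In APP_AG494 2 of the 15 mesenchymal markers were higher than in APP_DMSO (4 with the block) and none lower. NOTCH2 rose by 0.47 and MAML2 by 0.46. Mean levels of this list were 9.14 to 9.21 in APP_AG494 against the 8.96 to 9.08 of APP_DMSO. Of 9 immune markers 1, CD68, rose by 0.52 in the same comparison. The part of these markers in the differences of NPY, VIP and the granins was not tested.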

How the data were processed

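Gene expression was measured on 21 arrays, 7 groups of 3, grouped by the labels. RMA from the affy package gave the deposited log2 values, per the submitters' processing notes (versions: not given in the sources used here). These intensities were taken as the authors deposited them and ran from 4.14 to 14.37. Intensities carry no counts, so depth does not apply and no detection limit was computed.

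Among 49372 probe sets, 44988 carry a single symbol in the platform's annotation. Left out were 79 controls, 1832 probe sets with several symbols and 2473 with none listed. Symbols were updated by Entrez ID (44961 matched), and the probe set with the highest mean stood for each of 18132 genes.

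All 21 arrays entered 1 fit in limma 3.58.1 (R 4.3.3, lmFit and eBayes) with 1 coefficient per group, 14 residual and 4.27 prior degrees of freedom. The 15 contrasts were tested two-sided, with p-values adjusted by Benjamini and Hochberg over all genes of a contrast and a threshold of 0.05. The fit was checked on simulated data. Nothing in the labels says that the 3 experiments were separate cultures beyond the word independent, so p-values measure the spread between these arrays.

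The title numbers fall into 3 runs of 10 with 1 array of every group each. Deviations from group means correlated at 0.226 to 0.685 in all 63 pairs of arrays of the same run, and at -0.529 to 0.0889 in 126 pairs of different runs and groups. The runs were therefore taken to pair the arrays, and the fit with a replicate block by run is quoted where it changes a member's call or a list count printed here.

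The members, the gene lists and the tests were chosen with earlier results of these data known. All members were tested in every comparison, and some uncalled members are not named in the text. From each list up to 6 called genes with the lowest p were named in each comparison with vehicle and of APP_DMSO with WT_DMSO. VIPR1, VIPR2, CPE, TH, SLC18A2, CARTPT and RPH3A were named beyond this rule after their values were seen. The most similar genes were given for members whose group means span at least 1 log2 unit. Alternatives were the block, other treatments of probe sets and dim genes, renormalisation, other variance settings, a fold minimum and leaving out each array. Promoters came from RefSeq, GRCh38.p14, and those of CHGA, CHGB, GAL and SCG2 are not reported here.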

Additional observations from a re-analysis of the deposited data

How the results depend on the processing

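The members called moved by over 1.5 times under some alternatives. Between APP_AG494 and APP_DMSO (1 call) there were 5 with the replicate block, 3 with probe sets averaged per gene or without the dimmest 33.3% of genes, 2 with median centring, a trended and robust prior or array weights, and 0 at a fold of at least 1.5. Between APP_AG494 and APP_NOSCA (1 call) there were 3 with the block, 2 with the probe set mean, without the dimmest genes, with the trended and robust prior or with array weights, and 0 with only the groups compared or at the fold of 1.5. The block gave 2 between WT_AG494 and WT_DMSO (0 calls). With only the groups compared there were 2 each between APP_NOSCA and WT_NOSCA (5 calls), WT_PALBO and WT_AG494 (4 calls) and WT_PALBO and WT_NOSCA (4 calls). At the fold of 1.5 these became 3, 2 and 1, and there were 2 between WT_PALBO and WT_DMSO (4 calls) and 2 for the averaged genotype (6 calls). Leaving out each array gave 0 to 2 calls between APP_AG494 and APP_DMSO, 2 to 4 between APP_NOSCA and WT_NOSCA, 2 to 4 between WT_PALBO and either other compound, and 0 to 1 between APP_AG494 and APP_NOSCA. Apart from the added fold minimum and fewer arrays or genes, the cause was not tested. No called value reversed. Uncalled values reversed for GAL between APP_AG494 and APP_DMSO with the probe set mean (0.09), and on leaving out 1 array, where values ran as follows. NPY between WT_AG494 and WT_NOSCA ran from -0.20 to 0.22, the upper end without WT_NOSCA replicate 1. VIP in WT_PALBO ran from -0.42 to 0.21 against WT_DMSO and from -0.42 to 0.22 against WT_NOSCA, the upper ends without WT_PALBO replicate 1. SCG3 between APP_DMSO and WT_DMSO ran from -0.11, without APP_DMSO replicate 3, to 0.06. Against WT_DMSO, TAC1 ran from -0.20 to 0.01 in APP_DMSO, -0.14 to 0.07 in WT_AG494, -0.08 to 0.13 in WT_NOSCA and -0.12 to 0.09 in WT_PALBO, and ADCYAP1 from -0.29 to 0.08 in WT_NOSCA and -0.17 to 0.11 in WT_PALBO, all upper ends without WT_DMSO replicate 2. Uncalled values that crossed 0 while moving by less than 1 SE are not listed. The VIP, NPY, CHGA and CHGB calls between APP_DMSO and WT_DMSO held under all 10 alternatives and all 6 arrays left out, with VIP at -3.23 to -3.06 and NPY at 0.80 to 1.09. SST and TAC1 have no value without the dimmest genes. The block changed no other call of a member than those printed. Quantile normalisation and median centring moved the median of all genes by less than 0.1.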
